A study of Homo sapiens with 15 samples.

Results

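The Kruppel-like factors KLF2, KLF3, KLF4, KLF6, KLF9, KLF10, KLF11, KLF13 and KLF16 were followed in 3 human acute myeloid leukemia lines after knockdown of the ubiquitin ligase RNF5. These 9 genes were chosen by symbol from the 17 Kruppel-like factor genes among the 57820 gene IDs of each table, by hand and with measured values of these same libraries in view. What follows therefore describes them, and the count of changed members gives no independent evidence about the family. No numerical threshold set the choice. KLF2, which was chosen, had normalized read counts of 4 to 423 in the lines that listed it, and KLF7, which was not chosen, had 258 to 676.

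MOLM-13, U937 and HL-60 are established lines grown from patients with acute myeloid leukemia or, for U937, a histiocytic lymphoma, and are widely used as models of myeloid cells. Each line was transduced with lentivirus carrying either the empty vector pLKO or a hairpin against RNF5 in the same vector (shRNF5), and RNA was sequenced. The 15 libraries comprised 3 pLKO and 2 shRNF5 libraries of MOLM-13, 2 and 2 of U937, and 3 and 3 of HL-60. The protocol text of the samples places RNA collection at 7 days after knockdown and the series text at 5 days, and which hairpin was sequenced is not given in the sources used here. Because a single hairpin label stands against an empty vector, effects of the hairpin other than loss of RNF5 cannot be told apart from effects of RNF5. Replicates are separate samples by label, and the study's reporting form speaks in general of independent repeats without tying these libraries to separate transductions, so the spread between them may be technical.

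Values are the authors' normalized read counts, scaled within each line and rounded to whole numbers, so levels in different lines are set side by side only as a description. Depth, worked out from how far apart the rounded low values lie, was 9700000 to 15300000 reads in the MOLM-13 pLKO libraries, 24400000 and 63800000 reads in the MOLM-13 shRNF5 libraries, and 13300000 to 21400000 reads in all libraries of U937 and HL-60. RNF5 itself (chr6:32146182-32148570, GRCh37) fell in all 3 lines. The log2 fold change was -3.77 (SE 0.18) for MOLM-13, -3.64 (SE 0.37) for U937 and -3.25 (SE 0.39) for HL-60, with limma adjusted p = 0.000336, 0.00287 and 0.00125. Without pLKO replicate 2 or shRNF5 replicate 1 of U937, the RNF5 difference there was -3.83 or -3.30 with adjusted p = 0.256 or 0.292. Of 14 myeloid markers, 12, 12 and 11 were above 0 in MOLM-13, U937 and HL-60, with CD68 listed at 0 in all 3 lines and CD14 at 0 in U937 and HL-60. The T-cell genes CD3D, CD3E and CD3G, the B-cell gene MS4A1, the globins HBA1, HBA2 and HBB and the erythroid factor GATA1 were listed at 0 throughout. Of the lymphoid, erythroid and megakaryocyte, and stromal and epithelial marker lists, 2 genes were called, both higher in HL-60: NKG7 (log2 fold change 1.00, limma adjusted p = 0.0759) and KRT8 (1.56, adjusted p = 0.0164), the latter from a pLKO mean of 7.

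Kruppel-like factors are transcription factors that bind GC-rich and CACCC-type DNA through C-terminal zinc fingers, and their N-terminal parts recruit different partners. KLF2, KLF4, KLF6 and KLF7 belong to the members that mostly activate transcription through acetyltransferases such as EP300. KLF3 represses through CTBP proteins, and KLF9, KLF10, KLF11, KLF13 and KLF16 recruit the SIN3A corepressor. In myeloid cells the family is best known for KLF4, which drives monocyte differentiation, and for KLF2, which restrains the activation of monocytes.

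The upstream DNA of 3 of the 4 members that passed the test in at least 1 line is shown because the tests below turn on these genes. Each sequence is the 250 bases before the annotated start in RefSeq (GRCh38.p14), written 5′ to 3′ on the strand of the gene: KLF2 at chr19:16324576-16324825 on the plus strand, KLF6 at chr10:3785210-3785459 on the minus strand and KLF13 at chr15:31326585-31326834 on the plus strand. Capitals mark matches on either strand to the GC box GGGCGG, to CACCC and to the MEF2 motif, and adjoining matches run together.
KLF2: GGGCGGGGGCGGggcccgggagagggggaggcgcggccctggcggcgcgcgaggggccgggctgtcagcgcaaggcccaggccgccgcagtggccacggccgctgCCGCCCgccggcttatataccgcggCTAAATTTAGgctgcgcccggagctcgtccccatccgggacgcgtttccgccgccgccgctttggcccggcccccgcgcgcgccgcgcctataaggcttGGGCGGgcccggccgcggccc
KLF6: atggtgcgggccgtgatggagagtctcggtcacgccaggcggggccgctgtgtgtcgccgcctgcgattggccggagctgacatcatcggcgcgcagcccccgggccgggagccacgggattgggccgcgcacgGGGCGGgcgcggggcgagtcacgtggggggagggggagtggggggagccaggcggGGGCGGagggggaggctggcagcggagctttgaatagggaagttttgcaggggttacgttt
KLF13: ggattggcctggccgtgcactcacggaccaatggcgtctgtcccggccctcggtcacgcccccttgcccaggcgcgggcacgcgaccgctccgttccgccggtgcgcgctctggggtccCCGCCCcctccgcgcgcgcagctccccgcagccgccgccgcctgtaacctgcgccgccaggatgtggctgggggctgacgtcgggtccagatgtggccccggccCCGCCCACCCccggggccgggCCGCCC
KLF3 and KLF10 had no entry in the table of upstream sequences, and 7 of the 9 members matched.

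The GC box occurred 4 times upstream of KLF2, 2 times upstream of KLF6 and 3 times upstream of KLF13, and 42.6% of all 35116 upstream windows held at least 1. Upstream of KLF4, KLF11 and KLF16 it occurred 4, 2 and 7 times, whereas the KLF9 window held none. A CACCC match, which the family itself can bind, was present only upstream of KLF13 among the 7 members and in 54.7% of all windows. The MEF2 motif matched once, upstream of KLF2, and 0.515% of all windows held it. CCAAT occurred 2 times each upstream of KLF6, KLF9 and KLF13 (32.0% of all windows), and none of the 7 windows held TATAAA, TGACGTCA or the serum response element, found in 10.7%, 1.65% and 1.16% of all windows. GC content was 80.0% for KLF2, 72.4% for KLF6 and 78.8% for KLF13, against a median of 58.0% over all windows, and KLF9 was the member below that median with 32.4%. These matches describe letters in the windows and not binding.

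All 9 members were above 0 in MOLM-13, 8 in U937, where KLF11 was listed at 0 in all 4 libraries, and 7 in HL-60, where KLF2 and KLF4 were listed at 0 in all 6 libraries. A gene at 0 in every library of a line had been removed there before deposit, so its level is unknown and may be low rather than absent. Thus 6 members could be compared in all 3 lines.

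A gene was called when its limma adjusted p over all genes tested was under 0.1 and its log2 fold change was beyond 0.4 in either direction, on the scale log2(value + 1). Of the 9 members tested in MOLM-13, 1 rose (KLF2), against 2 of 8 in U937 (KLF10 and KLF13) and 2 of 7 for HL-60 (KLF6 and KLF10), and no member was called lower in any line. At an unadjusted p under 0.05 in limma, 3, 2 and 2 members were higher for MOLM-13, U937 and HL-60, while 0, 1 (KLF16) and 0 were lower. Of all genes tested, 8.53%, 12.8% and 18% were higher and 8.46%, 14.3% and 17% lower at that threshold. At the threshold for a call the background differed widely between lines. Among all genes tested, MOLM-13 had 1.03% called higher and 1.01% lower, U937 had 6.92% and 8.74%, and HL-60 had 13.6% and 12.3%. Groups without overlap were common among all genes. Every shRNF5 library lay above every pLKO library for 2547 of 13026 genes in MOLM-13, 3822 of 13165 in U937 and 2501 of 12570 in HL-60. Every shRNF5 library lay below for 2497, 3978 and 2337 of them. Of the 24 member and line values 18 were above 0, and the median log2 fold change of the members was 0.34, 0.27 and 0.21 in MOLM-13, U937 and HL-60, beside 0.01, 0.00 and 0.00 over all genes tested. Since the members were chosen with these contrasts in view, nothing about the family is read from those counts.

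**Figure D1:**
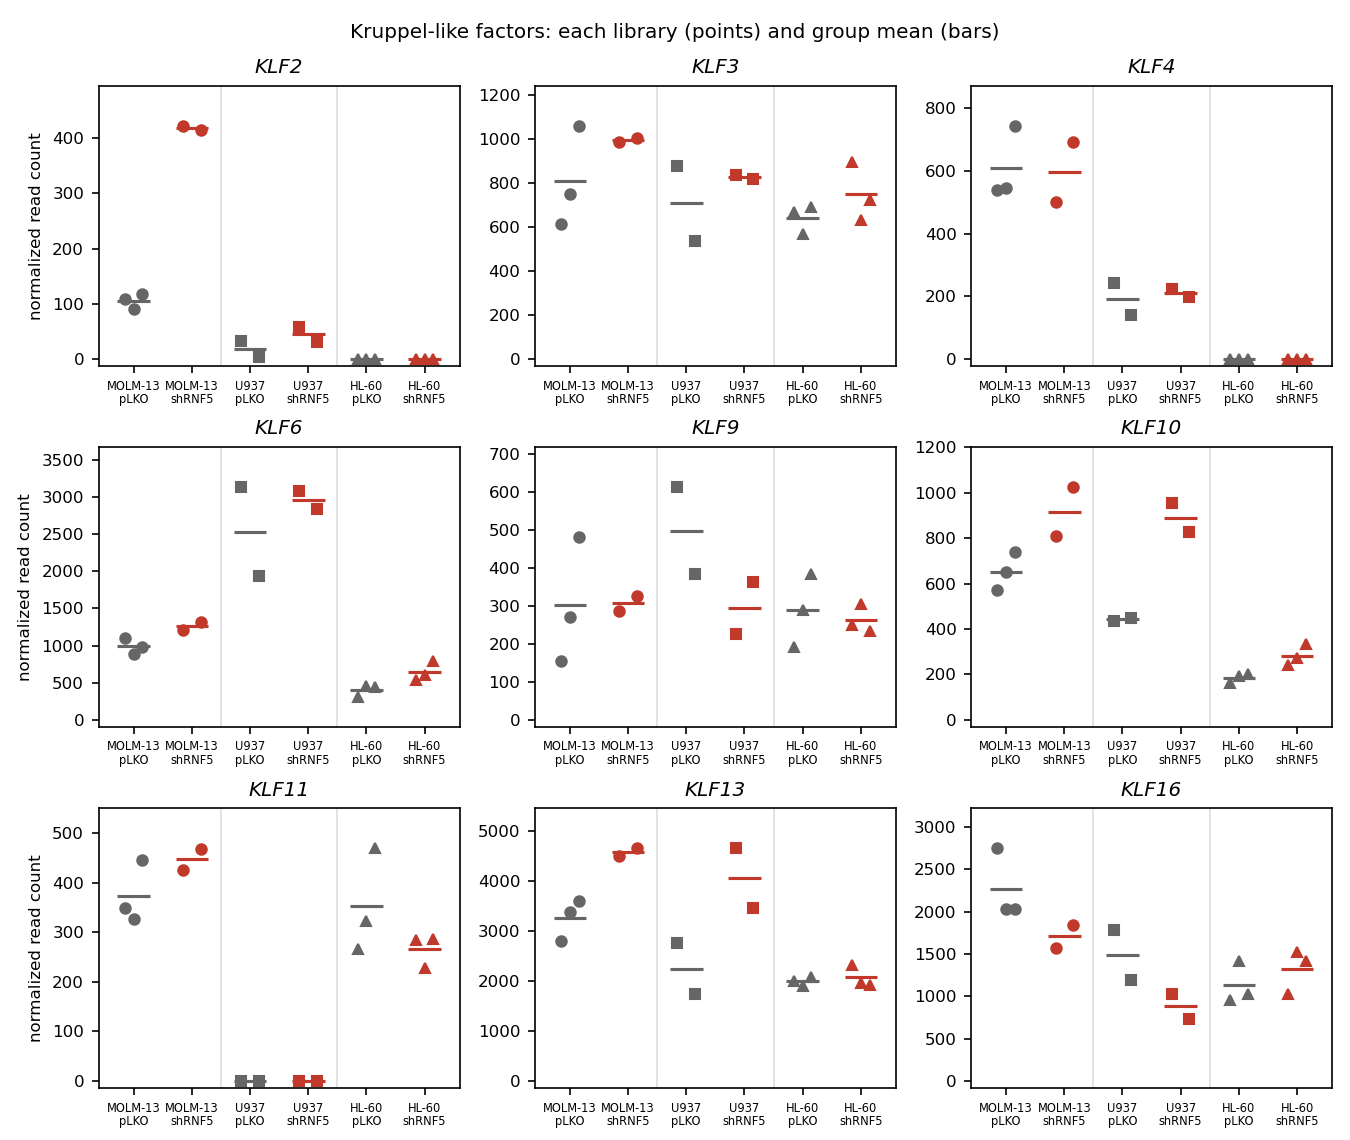
Normalized read count (vertical axis, linear, from 0) of each Kruppel-like factor in each of the 15 libraries, with circles for MOLM-13, squares for U937 and triangles for HL-60, grey for pLKO and red for shRNF5, and a horizontal bar at each group mean. KLF2 in MOLM-13 shows 415 and 423 in the shRNF5 libraries against 91 to 118 in the pLKO libraries, and the points on the baseline are genes listed at 0 throughout a line.

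Among the activating members, KLF2 (chr19:16435637-16439496) had the largest log2 fold change of the 5 member calls, in MOLM-13. Its normalized read counts there were 108, 91 and 118 in the pLKO libraries and 423 and 415 in the shRNF5 libraries, which do not overlap. The means of 106 ± 13.7 (SD, n = 3) and 419 ± 5.66 (SD, n = 2) stood 3.97-fold apart, with a log2 fold change of 1.99 (SE 0.22, 95% interval 1.48 to 2.49, limma adjusted p = 0.0255). These values rest on about 46 to 57 reads per pLKO library and 407 to 1063 per shRNF5 library, and depth itself separated the MOLM-13 groups, whose part in the result was not tested. Leaving out pLKO replicate 2, shRNF5 replicate 1 or shRNF5 replicate 2 kept the log2 fold change at 1.88, 1.97 or 2.0 but ended the call (adjusted p = 0.126, 0.243 or 0.21), and with each of them left out 1, 6 or 2 of all 13026 genes were called.

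KLF2 was much lower in U937. Its normalized read counts there were 33 and 4 in the pLKO libraries and 58 and 31 in the shRNF5 libraries, so the groups overlapped, and the value of 4 stood for about 5 reads. The U937 log2 fold change of 1.74 (SE 0.88, 95% interval -0.21 to 3.68) did not pass the test (limma adjusted p = 0.23). Fitting MOLM-13 and U937 together, the responses of KLF2 differed by 0.25 (SE 0.94, adjusted p = 0.895), an error too wide to tell like from unlike responses.

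KLF4 (chr9:110247133-110252763), the monocyte differentiation factor, passed the test in neither line that listed it, and its constructs overlapped in both. In MOLM-13 it had 540, 545 and 745 normalized reads with pLKO and 502 and 692 with shRNF5, a log2 fold change of -0.03 (SE 0.22, 95% interval -0.54 to 0.47, limma adjusted p = 0.951). In U937 it had 242 and 141 with pLKO and 224 and 197 with shRNF5, a log2 fold change of 0.18 (SE 0.37, adjusted p = 0.782). Its responses in MOLM-13 and U937 differed by -0.22 (SE 0.41, adjusted p = 0.784).

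KLF6 (chr10:3818188-3827473), an activator abundant in macrophages, rose in HL-60. Its normalized read counts were 314, 455 and 447 with pLKO and 534, 606 and 794 with shRNF5, and the groups did not overlap. The 1.59-fold rise corresponded to a log2 fold change of 0.67 (SE 0.19, 95% interval 0.25 to 1.09, limma adjusted p = 0.034). Without pLKO replicate 1 or shRNF5 replicate 3 the log2 fold change was 0.49 or 0.51 and the call was lost (adjusted p = 0.117 or 0.125).

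In MOLM-13 KLF6 had 890 to 1102 normalized reads with pLKO against 1209 and 1323 with shRNF5, again without overlap, but the log2 fold change of 0.36 (SE 0.16) missed the threshold (limma adjusted p = 0.298). In U937 the pLKO libraries alone spanned 1929 to 3137 and both shRNF5 values, 3072 and 2835, lay inside that span (log2 fold change 0.26, SE 0.28, adjusted p = 0.568). U937 was nonetheless the line with the most KLF6: per 1000000 of summed values, pLKO libraries averaged 155 ± 49.5 (SD, n = 2) in U937, 39.0 ± 4.36 (SD, n = 3) in MOLM-13 and 25.0 ± 4.62 (SD, n = 3) in HL-60.

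KLF3 (chr4:38665818-38703138), the CTBP-dependent repressor, passed the test in no line. Its normalized read counts ranged from 612 to 1061 over the MOLM-13 libraries, 535 to 879 over U937 and 570 to 896 over HL-60, and the constructs overlapped in each line. The log2 fold changes were 0.34 (SE 0.23), 0.27 (SE 0.30) and 0.21 (SE 0.16), with limma adjusted p = 0.48, 0.584 and 0.36. Its exons overlap those of KLF3-AS1 on the opposite strand, which was listed at 0 in every library. Unnamed opposite-strand genes also overlap exons of KLF4, KLF11 and KLF16, and with no strand setting for the counting given in the sources used here, reads of such pairs cannot be told apart.

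The SIN3A-recruiting members gave log2 fold changes of both signs. KLF10 (chr8:103661012-103667953), first known as a gene induced early by TGF-beta, was the member called in 2 lines. In U937 its normalized read counts were 436 and 448 with pLKO and 952 and 827 with shRNF5, a 2.01-fold rise (log2 fold change 1.00, SE 0.26, 95% interval 0.42 to 1.59, limma adjusted p = 0.0497). In HL-60 they were 162, 193 and 203 with pLKO and 242, 273 and 334 with shRNF5, a 1.52-fold rise (log2 fold change 0.60, SE 0.18, 95% interval 0.20 to 0.99, adjusted p = 0.0392). Neither pair of groups overlapped.

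KLF10 in MOLM-13 had 570, 650 and 738 normalized reads with pLKO and 807 and 1026 with shRNF5. Those groups did not overlap either, but the log2 fold change of 0.49 (SE 0.19, 95% interval 0.06 to 0.92) did not pass over all genes (limma adjusted p = 0.25). The U937 call of KLF10 was lost without pLKO replicate 2, shRNF5 replicate 1 or shRNF5 replicate 3 (log2 fold change 0.98, 0.90 and 1.11, adjusted p = 0.256, 0.624 and 0.239), and 0, 0 and 6 of 13165 genes were then called. The HL-60 call was lost without pLKO replicate 1 or shRNF5 replicate 3 (log2 fold change 0.50 and 0.47, adjusted p = 0.127 and 0.138). No difference between the 3 responses of KLF10 passed a test: MOLM-13 minus U937 was -0.52 (SE 0.29, adjusted p = 0.26), U937 minus HL-60 was 0.41 (SE 0.27, adjusted p = 0.277) and MOLM-13 minus HL-60 was -0.11 (SE 0.26, adjusted p = 0.842).

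KLF11 (chr2:10182976-10194963), the closest relative of KLF10, did not pass the test in either line that listed it. It had 327 to 446 normalized reads with pLKO and 426 and 469 with shRNF5 in MOLM-13 (log2 fold change 0.27, SE 0.20, limma adjusted p = 0.518), and 266 to 471 with pLKO and 228 to 286 with shRNF5 in HL-60 (log2 fold change -0.37, SE 0.21, adjusted p = 0.234). The difference of 0.64 between these opposite-signed responses had SE 0.31 and adjusted p = 0.203.

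KLF13 (chr15:31619038-31727868), which activates the chemokine gene CCL5 in T cells, rose in U937. Its normalized read counts were 2755 and 1729 with pLKO and 4665 and 3463 with shRNF5, a 1.81-fold rise without overlap (log2 fold change 0.88, SE 0.29, 95% interval 0.25 to 1.51, limma adjusted p = 0.0851). The call was lost without any of the 4 U937 libraries, each of which leaves 1 library in its group. Without pLKO replicate 2 or shRNF5 replicate 3 the log2 fold change was 1.22 or 1.10. Without pLKO replicate 3 or shRNF5 replicate 1 it was 0.54 or 0.67. RNF5 also lost its U937 call without pLKO replicate 2 or shRNF5 replicate 1.

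In MOLM-13 KLF13 had 2789, 3375 and 3604 normalized reads with pLKO and 4500 and 4659 with shRNF5, again without overlap (log2 fold change 0.50, SE 0.15, limma adjusted p = 0.174). In HL-60 the values of 2002, 1906 and 2076 with pLKO and 2328, 1968 and 1926 with shRNF5 overlapped and gave a log2 fold change of 0.05 (SE 0.12, 95% interval -0.21 to 0.32, adjusted p = 0.787).

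KLF16 (chr19:1852398-1863578), a repressor with a very GC-rich upstream region, had negative log2 fold changes in MOLM-13 and U937 and passed the test in no line. Its normalized read counts were 2758, 2034 and 2031 with pLKO and 1575 and 1841 with shRNF5 in MOLM-13, and 1786 and 1197 with pLKO and 1031 and 736 with shRNF5 in U937, without overlap in either line. The log2 fold changes of -0.40 (SE 0.18) and -0.75 (SE 0.29) did not pass (limma adjusted p = 0.306 and 0.132). In HL-60 the values of 954, 1412 and 1026 with pLKO and 1030, 1530 and 1423 with shRNF5 overlapped (log2 fold change 0.23, SE 0.19, adjusted p = 0.399).

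KLF9 (chr9:72999520-73029573), which glucocorticoids induce, also passed in no line. MOLM-13 pLKO libraries had 156, 272 and 482 normalized reads, and both shRNF5 values, 286 and 327, lay between them (log2 fold change 0.16, SE 0.41, limma adjusted p = 0.867). In U937 the values were 614 and 383 with pLKO and 227 and 364 with shRNF5, lower without overlap but not past the test (log2 fold change -0.75, SE 0.35, 95% interval -1.54 to 0.03, adjusted p = 0.2). In HL-60 they ranged from 192 to 385 with pLKO and 235 to 305 with shRNF5 (log2 fold change -0.09, SE 0.24, adjusted p = 0.821).

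**Figure D2:**
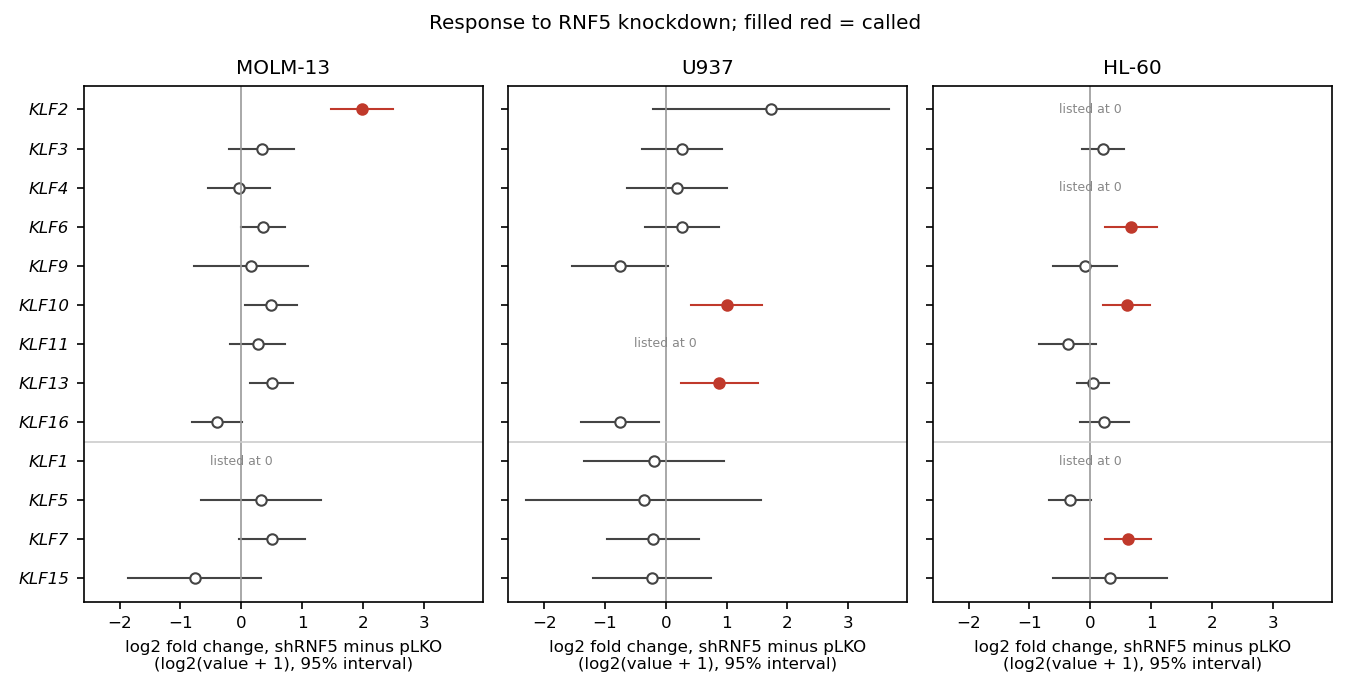
Log2 fold change of shRNF5 minus pLKO on log2(value + 1) (horizontal axis) with its 95% interval (lines) for the 9 members above the grey line and 4 other Kruppel-like factors below it, one panel per cell line. Filled red points passed the test: KLF2 in MOLM-13 at 1.99, KLF10 and KLF13 in U937 at 1.00 and 0.88, and KLF6, KLF10 and KLF7 in HL-60 at 0.67, 0.60 and 0.62.

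Whether the response differed between lines was tested in a single limma fit over all 15 libraries and the 11072 genes above 0 in every line. For the pairs MOLM-13 and U937, MOLM-13 and HL-60, and U937 and HL-60, 15.4%, 8.82% and 37.2% of those genes had a different response at adjusted p under 0.1. Of the 6 members present in every line, 0, 0 and 2 did, and 0, 0 and 2 had an unadjusted p under 0.05, as did 26.5%, 22.5% and 40.4% of all genes. KLF13 responded more in U937 than in HL-60 by 0.83 (SE 0.27, adjusted p = 0.0322), and the KLF16 response was lower in U937 than in HL-60, the difference being -0.98 (SE 0.33, adjusted p = 0.0397). A count of 2 of 6 is near the background share for that pair.

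Both differences rest on the small U937 groups. The KLF13 difference was 0.49 without U937 pLKO replicate 3 and 0.61 without U937 shRNF5 replicate 1 (limma adjusted p = 0.137 and 0.166). The KLF16 difference was -0.69 without U937 pLKO replicate 2 and -0.74 without U937 shRNF5 replicate 3, and neither passed. With replicate number as a block it was -0.93 and did not pass. The U937 response under that block rests on replicate 3 of each construct alone. Conversely, the KLF6 difference between U937 and HL-60, -0.41 (SE 0.32, adjusted p = 0.352) with all libraries, was -0.76 without U937 pLKO replicate 3 and then passed (adjusted p = 0.0709).

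In U937 the pLKO libraries were unequal for most members. Replicate 3 lay below replicate 2 for 7 of the 8 members listed in U937 (87.5%), with a median log2 difference of -0.69, whereas it lay below for 49.3% of 13163 genes with a median of 0.00. KLF10, with 436 and 448, was the exception. This comparison was chosen after the values were seen, and its part in the U937 fold changes was not tested.

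**Figure D3:**
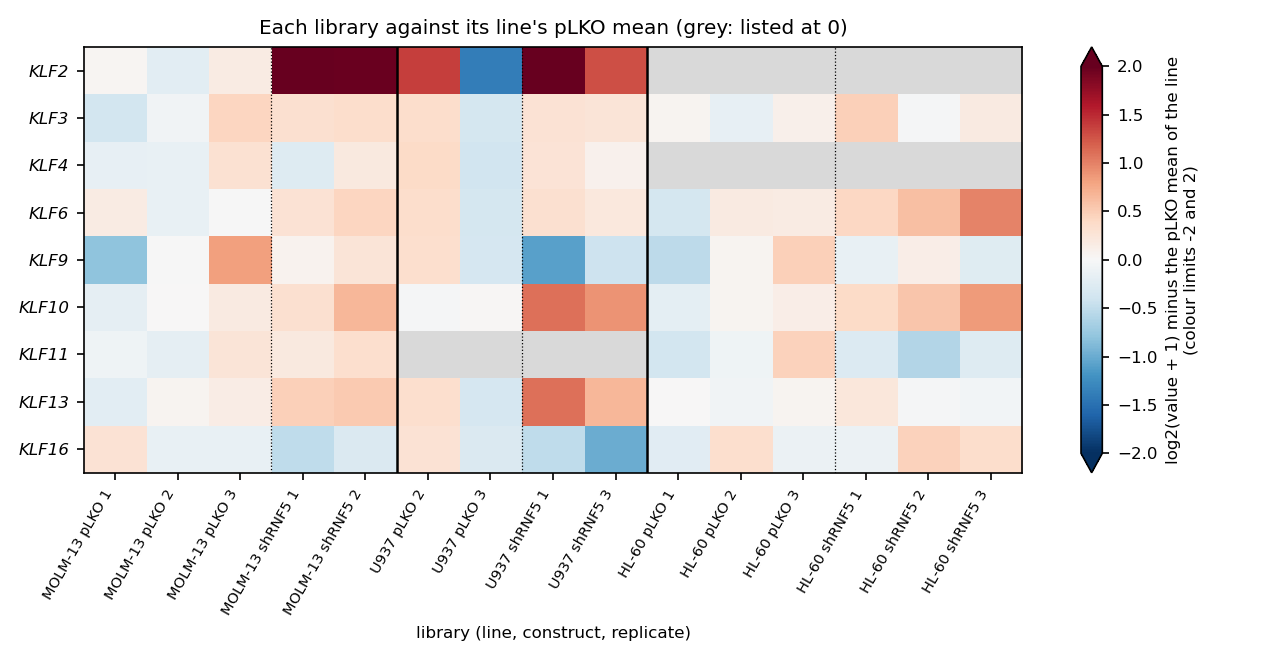
Difference on log2(value + 1) between each library (columns, by line, construct and replicate) and the pLKO mean of its line for each member (rows), red for higher and blue for lower, with colours saturating at -2 and 2 and grey where the gene was listed at 0. In U937 the pLKO replicate 3 column is blue for every member listed except KLF10, and the KLF10 row is red in all 7 shRNF5 libraries.

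The order of the members' levels depended on the scale. Per 1000000 of summed values, KLF13 averaged 128, 138 and 123 and KLF16 89.4, 91.6 and 69.6 in the pLKO libraries of MOLM-13, U937 and HL-60, and KLF6 was above both in U937 at 155. Divided also by kilobases of exon, KLF16 had the highest mean of the 9, at 30.2 (MOLM-13), 30.9 (U937) and 23.5 (HL-60). KLF13 came next in MOLM-13 (13.6) and HL-60 (13.1), and KLF6 in U937 (25.3). KLF2 was the lowest of those listed, at 1.48 in MOLM-13 and 0.40 in U937. In MOLM-13 the middle of the order, KLF10 (6.73), KLF4 (6.57) and KLF6 (6.35), spanned less than the libraries' spread. The labels name a kit that reads only 3′ ends, for which division by length would not apply, whereas the study's methods name a whole-transcript kit.

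Of the 8 other family members, KLF5, KLF7 and KLF15 were above 0 in every line and KLF1 in U937 alone, while KLF8, KLF12, KLF14 and KLF17 were listed at 0 throughout. KLF7, a close relative of KLF6, rose in HL-60 from 347, 258 and 292 normalized reads to 517, 379 and 481 (log2 fold change 0.62, SE 0.17, limma adjusted p = 0.0311), and without pLKO replicate 3 it was 0.60 with adjusted p = 0.105. It gave 0.50 (adjusted p = 0.325) in MOLM-13 and -0.21 (adjusted p = 0.72) in U937. KLF5 and KLF15 passed in no line (adjusted p 0.159 or more), and KLF1, the erythroid factor, had 35 to 45 normalized reads in all 4 U937 libraries. The related SP factors, which share the zinc finger type and bind GC boxes, had no call in limma among the 5 tested for MOLM-13, 5 for U937 and 4 for HL-60. Of all genes tested, 2.04%, 15.7% and 25.9% were called. At an unadjusted p under 0.05 in limma, 0, 1 and 0 SP genes were higher and 0, 0 and 1 lower. All genes had 8.53%, 12.8% and 18% higher and 8.46%, 14.3% and 17% lower at that threshold. The response of SP2, 0.81 (SE 0.32, adjusted p = 0.135) in U937 and -0.30 (SE 0.15, adjusted p = 0.17) in HL-60, differed between these lines by 1.12 (SE 0.27, adjusted p = 0.00836). SP1 and SP3, the broadly expressed ones, ranged from 2136 to 4988 and 2159 to 5387 normalized reads over all libraries, SP2 from 185 to 599 and SP4 from 222 to 610. SP9 had 21 and 19 with pLKO and 7 and 5 with shRNF5 in U937 (log2 fold change -1.60, SE 0.77, adjusted p = 0.21).

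Of 15 partner genes of the family, MOLM-13 had 0 that rose and 1 that fell, U937 1 and 2, and HL-60 1 and 3, with medians of the log2 fold change of 0.08, 0.33 and -0.06. The counts in this list and in those that follow stand against 1.03%, 6.92% and 13.6% of all genes called higher and 1.01%, 8.74% and 12.3% called lower, and the medians against 0.01, 0.00 and 0.00 over all genes. SAP18, a component of SIN3A-associated complexes, fell in each line, with log2 fold changes of -1.24 (SE 0.13) for MOLM-13, -1.01 (SE 0.25) for U937 and -0.95 (SE 0.18) for HL-60 (limma adjusted p = 0.0255, 0.0434 and 0.00661). EP300, the acetyltransferase partner, rose by 1.15 in U937 (adjusted p = 0.0353) and fell by 0.66 in HL-60 (adjusted p = 0.0413). CTBP1, the partner of KLF3, fell by 0.73 in U937 (adjusted p = 0.0816), and the acetyltransferase gene KAT2B rose by 0.56 in HL-60 (adjusted p = 0.0585).

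Of 12 genes placed upstream of KLF2 and KLF4, 12, 12 and 11 were tested. None was called in MOLM-13, 1 fell in U937 and 1 rose and 2 fell in HL-60, with median log2 fold changes of 0.01, 0.02 and 0.02. At an unadjusted p under 0.05 in limma, 1 was higher and 0 lower in MOLM-13, beside 8.53% and 8.46% of all genes. MAP2K5, a kinase of the ERK5 pathway that induces KLF2, fell by 0.81 in U937 (limma adjusted p = 0.088). In HL-60, where KLF2 and KLF4 were listed at 0, the KLF2 regulator FOXO1 fell by 0.89 (adjusted p = 0.0725), the F-box gene BTRC fell by 0.59 (adjusted p = 0.0259) and the ubiquitin ligase gene WWP1 rose by 0.54 (adjusted p = 0.0327).

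Of the genes reported elsewhere as targets of the family, 9, 10 and 7 of 12 were tested, and 2, 1 and 2 rose and 0, 0 and 2 fell in MOLM-13, U937 and HL-60, with median log2 fold changes of 0.58, 0.42 and 0.06. CDKN1A, the cell cycle inhibitor p21 that KLF4 and KLF6 activate, rose in each line, by log2 fold changes of 1.30, 2.54 and 1.82 (limma adjusted p = 0.0682, 0.0117 and 0.0115), from a pLKO mean of 5346 in MOLM-13 but 8.67 in HL-60. The cyclin gene CCND1 rose by 1.29 in MOLM-13 (adjusted p = 0.0704) and fell by 1.16 in HL-60 (adjusted p = 0.00199). In HL-60 the integrin gene ITGB7, a target of KLF2, rose by 1.75 (adjusted p = 0.00623) and the endothelial receptor gene ENG, a target of KLF6, fell by 0.44 (adjusted p = 0.0509).

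In the TGF-beta pathway, which induces KLF10 and KLF11, 15, 14 and 12 of 15 genes were tested. In the same order of lines, 0, 2 and 2 rose and 0, 1 and 0 fell, with median log2 fold changes of 0.28, 0.34 and 0.03. At an unadjusted p under 0.05 in limma, 3 were higher and 0 lower in MOLM-13, beside 8.53% and 8.46% of all genes. The receptor gene TGFBR2 rose by 1.27 in U937 and 0.51 in HL-60 (limma adjusted p = 0.039 and 0.0207) and had a log2 fold change of 0.61 without overlap in MOLM-13 (adjusted p = 0.259). TGFBR1 rose by 0.94 in U937 (adjusted p = 0.0944). The signal transducer SMAD3 fell by 1.22 in U937 (adjusted p = 0.0339), and SMAD4 rose by 0.53 in HL-60 (adjusted p = 0.0158).

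KLF2, KLF4, KLF6 and KLF10 are also early response genes in many cells. Of 23 other early response genes, 21, 21 and 19 were tested, 2, 6 and 2 rose and 0, 0 and 3 fell, with median log2 fold changes of 0.14, 0.70 and 0.02. In HL-60, 13.6% of all genes were called higher and 12.3% lower, near the shares of this list. BTG2, an antiproliferative gene, rose in each line (log2 fold change 1.46, 1.23 and 1.72, limma adjusted p = 0.0844, 0.0615 and 0.00613). The AP-1 gene FOSL1 rose by 0.84 in MOLM-13 and 3.09 in U937 (adjusted p = 0.078 and 0.0185). EGR1 rose by 2.0 in U937 and fell by 2.0 in HL-60 (adjusted p = 0.0853 and 0.00423), and MYC fell by 1.28 in HL-60 (adjusted p = 0.00134).

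Of 11 glucocorticoid and clock genes, among which KLF9 is usually placed, 0, 1 and 2 rose and 0, 2 and 5 fell, with median log2 fold changes of -0.02, -0.35 and -0.37. Of all genes 6.92% and 13.6% were called higher and 8.74% and 12.3% lower in U937 and HL-60. In MOLM-13 5 of the list had an unadjusted p under 0.05, 2 higher and 3 lower, beside 8.53% and 8.46% of all genes. TSC22D3, a glucocorticoid-induced gene, fell by 1.89 in U937 and rose by 1.71 in HL-60 (limma adjusted p = 0.0314 and 0.00177). The clock output gene DBP fell by 1.85 in U937 (adjusted p = 0.0179), PER2 rose by 1.26 there and fell by 1.00 in HL-60 (adjusted p = 0.0409 and 0.00589), and PER3 fell by 0.97 in HL-60 (adjusted p = 0.0191). KLF9 itself passed in neither line.

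The granule genes AZU1, ELANE and PRTN3 fell in U937 and rose in HL-60, and no other myeloid marker was called in both lines. The summed level of the 14 markers was 2390 to 3000 per 1000000 with pLKO and 1370 to 1460 with shRNF5 in U937, 7700 to 9480 and 10800 to 16000 in HL-60, and 2910 to 4660 and 3230 to 4380 in MOLM-13. By gene, 0 rose and 3 fell in U937, 5 rose and 2 fell in HL-60, and none was called in MOLM-13. At an unadjusted p under 0.05 in limma, 0 were higher and 1 lower in MOLM-13, beside 8.53% and 8.46% of all genes. The median log2 fold change of the list was -0.24 in U937, 0.60 in HL-60 and 0.00 in MOLM-13. AZU1 fell by 2.44 and rose by 1.05 in U937 and HL-60 (limma adjusted p = 0.00829 and 0.0193), ELANE fell by 1.06 and rose by 1.73 (adjusted p = 0.0447 and 0.00125), and PRTN3 fell by 1.04 and rose by 1.16 (adjusted p = 0.0841 and 0.00801). The lysozyme gene LYZ rose by 1.25 in HL-60 (adjusted p = 0.0777), though with overlap, and had -0.23 in U937 (adjusted p = 0.628). MPO, the myeloperoxidase gene and the bulk of the HL-60 sum with a pLKO mean of 120628, rose by 0.60 in HL-60 (adjusted p = 0.078) and had 0.65 in U937 (adjusted p = 0.503) from a pLKO mean of 37. Their part in the changes of KLF6, KLF10 and KLF13 was not tested, and in bulk samples a change in the share of cells at one stage cannot be told apart from a change within cells.

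Over the 15 libraries, each taken relative to the pLKO mean of its line, the genes most like each member were ranked among 10571 genes by Pearson correlation, as a description of points that share libraries, depth and construct. KLF10 was most like ID2, the inhibitor of DNA binding induced by TGF-beta family signals, at 0.976, and PLP2 at 0.952. KLF13 was most like TGOLN2, a trans-Golgi protein gene, at 0.988 and WDFY4 at 0.973, KLF6 like SLC4A2, an anion exchanger gene, at 0.954 and UBE2Z at 0.924, and KLF16 like ZNF787 and the spliceosome gene SART1, both at 0.971. KLF3 was most like the coatomer gene COPA at 0.921 and SYNJ1 at 0.909, and KLF9 like UBE2R2 at 0.902 and THAP2 at 0.899. Among the members themselves 10 of 15 pairs were positive with a median of 0.24, and the share over all genes was not worked out. The highest were KLF10 and KLF13 at 0.689, KLF13 and KLF3 at 0.680, and KLF10 and KLF6 at 0.632. The lowest were KLF13 and KLF16 at -0.615, KLF10 and KLF16 at -0.361, and KLF16 and KLF3 at -0.336.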

How the data were processed

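RNA of 15 libraries was sequenced. By the study's methods the authors aligned reads to hg19 with STAR, counted them with featureCounts and used edgeR through SARTools. That each line was normalized separately is read from the values, since zeros and library totals follow the line. The deposited values, normalized read counts rounded to whole numbers, were treated as a score and not as raw counts, so a count model was not used. Per-gene-ID values were tested in each line with limma 3.58.1 in R 4.3.3 (mean-variance trend, Benjamini-Hochberg adjustment over all genes) on log2(value + 1), for genes with a value above 0 in at least 1 library (13026 for MOLM-13, 13165 for U937, 12570 for HL-60). Fold changes on that scale understate those of low genes. A call needed adjusted p under 0.1 and a log2 fold change beyond 0.4. One fit over all 15 libraries tested differences between lines. Fits of line pairs covered every member above 0 in both lines and are reported for KLF2, KLF4 and KLF11. For MOLM-13 minus HL-60 they gave KLF13 and KLF16 an unadjusted limma p of 0.0306 and 0.0409 (adjusted p = 0.145 and 0.167). The joint fit gave them an unadjusted p of 0.0983 and 0.0631. Those pair fits and the levels per 1000000 of summed values were chosen after seeing the data. Depth was worked out from how far apart the rounded low values lie, and the fit was tested on simulated data. No libraries were identical. Gene positions came from GENCODE on GRCh37.

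The members and gene lists were chosen with earlier results of these data known. Named genes were RNF5, the 9 members, every other KLF or SP gene above 0, from each other list at most 4 called genes by size of fold change, and the 2 genes most correlated with each member above 0 in all lines. Marker genes outside that rule (NKG7, KRT8) were named because only 2 were called, and MPO was named after its values were seen. Alternatives covered the pseudocount, a minimum mean of 50, median-of-ratios scaling, the variance trend, a joint fit, a transcript length correction, thresholds, a replicate block and leaving out each library.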

Additional observations from a re-analysis of the deposited data

Results flagged for a closer look

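The results below were singled out because the response to the hairpin differed between lines by a test of the difference itself. The KLF13 response was higher in U937 than in HL-60 by 0.83 on the log2 scale (limma adjusted p = 0.0322), with values higher without overlap in 2 of 2 shRNF5 libraries of U937 and overlapping in HL-60. The KLF16 response differed by -0.98 (limma adjusted p = 0.0397), with both U937 shRNF5 libraries below both pLKO libraries and overlapping groups in HL-60. With replicate number as a block this difference was -0.93 and did not pass, the U937 response then resting on replicate 3 of each construct alone. The response of SP2, a related GC-box factor, differed by 1.12 (adjusted p = 0.00836), with both U937 shRNF5 libraries above both pLKO libraries and all 3 HL-60 shRNF5 libraries below all 3 pLKO libraries. For the same pair of lines 37.2% of all genes differed.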

How the results depend on the processing

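With 2 or 3 libraries a group, each member call was lost without at least 1 library. The log2 fold changes then ranged from 1.88 to 2.07 for KLF2 in MOLM-13. In U937 they ranged from 0.90 to 1.11 for KLF10 and 0.54 to 1.22 for KLF13. In HL-60 the ranges were 0.49 to 0.79 for KLF6 and 0.47 to 0.70 for KLF10. Leaving out each library in turn gave 0 to 1 called members in MOLM-13, 0 to 1 in U937, 0 to 2 in HL-60 and 1 to 2 differences between lines. An arm left with 1 library, in U937 or MOLM-13 shRNF5, was assumed to vary like the other. Counts of called members also moved at an unadjusted p (3 in MOLM-13: KLF2, KLF10 and KLF13), without the variance trend (0 in U937), in the joint fit (4 in U937: KLF2, KLF10, KLF13 and KLF16) and at adjusted p under 0.05 (1 in U937: KLF10). Over all genes the calls moved from 266 in MOLM-13 to 55 and from 2062 in U937 to 475 without the variance trend, to 598 and 5239 in the joint fit, to 39 and 824 at adjusted p under 0.05, to 1973 and 3568 at an unadjusted p and to 738 in MOLM-13 with the block on title numbers. Leaving out a library gave 1 to 872 calls in MOLM-13, 0 to 2369 in U937 and 1970 to 3413 against 3251 in HL-60. No setting moved the median of all genes by over 0.1.

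By the sample titles, same-numbered libraries correlated at -0.173 and -0.53 in MOLM-13 and at 0.505, 0.156 and -0.109 in HL-60, which gives no ground for pairing them. The file labels number the MOLM-13 shRNF5 libraries differently, and there the 2 same-numbered pairs correlated at 0.53 and 0.281, with no shared origin stated. Each library was taken relative to its group mean, so the 2 MOLM-13 shRNF5 libraries mirror each other. The signs in MOLM-13 therefore cannot show which numbering, if any, pairs the libraries. No paired analysis was possible for U937 because its groups share 1 number. With the replicate block the members called stayed 1 in MOLM-13 and 2 in HL-60, and differences between lines fell to 1 (KLF13, with KLF16 at -0.93 and limma adjusted p = 0.104). In MOLM-13 either block drops the pLKO library without a partner, replicate 3 by titles and replicate 1 by file numbers. A block on those MOLM-13 file numbers raised the calls over all genes from 266 to 2495, and leaving out pLKO replicate 1 alone gave 872. That block gave 2 members (KLF2, and KLF6 at 0.44 with limma adjusted p = 0.0109), and SP4 passed (-0.54, adjusted p = 0.0105). In the joint fit SP2 and SP9 passed in U937 (adjusted p = 0.00849 and 0.000248). Signs that turned under a block were those of KLF4 in MOLM-13 (0.12) and KLF9 in MOLM-13 with the file labels (-0.24). The same values came from leaving out pLKO replicate 3 and pLKO replicate 1, respectively. Also turned, with U937 again resting on its replicate 3 libraries alone, were KLF3 and KLF6 for MOLM-13 minus U937 (-0.058 and -0.20). The same holds for KLF9 for U937 minus HL-60 (0.013). The length correction turned KLF4 in MOLM-13 (0.023).

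Leaving out a library also turned the sign of uncalled values, whose log2 ranges were -0.26 to 0.20 for KLF4 and -0.24 to 0.57 for KLF9 in MOLM-13. In U937 they were -0.086 to 0.63 for KLF3, -0.20 to 0.57 for KLF4, -0.088 to 0.61 for KLF6, -1.53 to 0.80 for KLF5, -0.68 to 0.25 for KLF7, -0.26 to 0.46 for SP1 and -0.31 to 0.26 for SP3. In HL-60 they were -0.35 to 0.15 for KLF9, -0.034 to 0.10 for KLF13 and -0.14 to 0.63 for KLF15. For MOLM-13 minus U937 they were -0.29 to 0.42 (KLF3) and -0.26 to 0.45 (KLF6), for MOLM-13 minus HL-60 -0.054 to 0.34 (KLF3), -0.16 to 0.65 (KLF9) and -0.28 to 0.063 (KLF10), and for U937 minus HL-60 -0.30 to 0.42 (KLF3). Over all single-gene values under the alternatives, 1123 kept their sign and side of the threshold, 18 gained and 25 lost a call, and 30 turned, the cause of which was not tested. Most of these values were uncalled in the main fit, and alternatives that changed only a threshold could not turn a sign. The tally is therefore no measure of how stable the calls are.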

Other observations

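KLF7, outside the chosen genes, was called in HL-60 as KLF6 was, and had no overlap between constructs in MOLM-13 either (312, 330 and 502 normalized reads with pLKO, 546 and 510 with shRNF5). KLF10 and KLF11 share induction by TGF-beta as background. In HL-60 KLF10 had a log2 fold change of 0.60 and KLF11 of -0.37 (limma adjusted p = 0.0392 and 0.234). In MOLM-13 they had 0.49 and 0.27, neither of which passed (adjusted p = 0.25 and 0.518). The difference between these 2 genes was not tested.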
